A study of Mus musculus with 4 samples.

Results

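Potassium channel subunits were described across astrocyte-enriched cultures (AECs) with and without oxygen–glucose deprivation (OGD). The members were all non-control probes of genes named Kcn, followed by lower-case letters and a number, which includes the astrocytic *Kcnj10*. The pattern found 97 genes, read by 148 probes and 175 spots, of 29676 genes, 39429 probes and 43020 spots in all. It also took in 4 noncoding RNAs, *Kcnq1ot1*, *Kcnd3os*, *Kcnmb4os1* and *Kcnmb4os2*, which are described apart from the channel subunits. Of the genes, 55 had 1 probe and 42 had more, at most 5.

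The study compared untreated AECs (n = 2) with AECs kept under OGD for 15 h (n = 2), each sample on its own single-color array. AECs were mixed glial cultures from the cortex of newborn ICR mice of either sex, with microglia depleted by the CSF1R inhibitor PLX3397, so that untreated cultures had received the inhibitor as well. OGD was hypoxia in medium without glucose. According to the methods, the wells held cells of independent cultures from different pups.

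Potassium channels are assembled from pore subunits, with or without auxiliary subunits, and set the resting potential and the repolarization of cells. Inward rectifiers and two-pore-domain channels are open near the resting potential, whereas voltage-gated Kv channels open on depolarization and calcium-activated channels open when intracellular calcium rises. Astrocytes use inward rectifiers built on Kir4.1, the product of *Kcnj10*, to keep a negative membrane potential and to clear potassium released by neurons.

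All values rest on the processed signal, a brightness from which the scanner software had subtracted background. Its 75th percentile was 2135 and 2164 in untreated AECs against 887 and 776 under OGD. The probes of spiked-in control RNA moved by −0.085 on average on the log2 scale, whereas the 75th percentile moved by −1.37. Differences below are log2 values of OGD minus untreated after each array was set to its own 75th percentile, and they say how a probe moved relative to that percentile. Under this scaling the median of all 28258 probes tested was 0.18, under scaling on the spiked-in probes it was −1.11, and under another background correction (normexp) it was 0.55. A probe was called if its adjusted p in limma was under 0.05. In such bulk samples, fewer cells of a type and less RNA per cell cannot be told apart.

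The cultures held markers of several cell types, by the brightest probe of each gene. All 15 astrocyte markers were well above background on all 4 arrays, as were 8 of 12 microglia, 10 of 12 oligodendrocyte, 9 of 12 neuron, 4 of 6 NG2 glia, 7 of 8 meningeal fibroblast, 5 of 7 endothelial and 8 of 8 mural cell markers. The summed processed signal of the astrocyte markers was 390194 to 431331 in untreated AECs and 218705 to 249254 after OGD. That of the microglia markers was 10833 to 11503 and 8975 to 10490, or 9620 to 10346 and 5198 to 6190 without *Cd68*, which alone went from 1157 and 1213 to 4301 and 3778. The sums were 64114 to 67549 and 27558 to 28738 for neuron, 78597 to 82872 and 35357 to 38856 for oligodendrocyte and 2307 to 2571 and 862 to 1052 for NG2 glia markers. They were 22028 to 26115 and 6707 to 9940 for meningeal fibroblast markers without *Col1a1*, which had no value on 1 OGD array, 4242 to 4541 and 1293 to 1701 for endothelial and 162740 to 177524 and 109501 to 131322 for mural cell markers. The part of these cells in the results for potassium channels was not tested.

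Of the 97 genes, 56 (57.7%) had a probe well above background on all 4 arrays, against 18425 (62.1%) of all genes. A further 22 genes (22.7%) were not well above background on any array with any probe, against 25.7% of all genes, and 19 lay in between. By at least 1 probe, 69 genes were well above background on both untreated arrays and 57 on both arrays after OGD. Detection was lower over the whole array as well. Of all non-control spots, 73.7% and 73.0% were well above background on the untreated arrays, against 66.2% and 64.5% on the OGD arrays. Of the Kv pore subunits, 22 of 30 were read on all arrays, as were 10 of 14 two-pore-domain channels. Of the 15 inward rectifiers, 5 were read on all arrays, namely *Kcnj4*, *Kcnj10*, *Kcnj12*, *Kcnj13* and *Kcnj16*. The 5 that were not well above background on any array were *Kcnj1*, *Kcnj3*, *Kcnj5*, *Kcnj6* and *Kcnj8*.

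**Figure D1:**
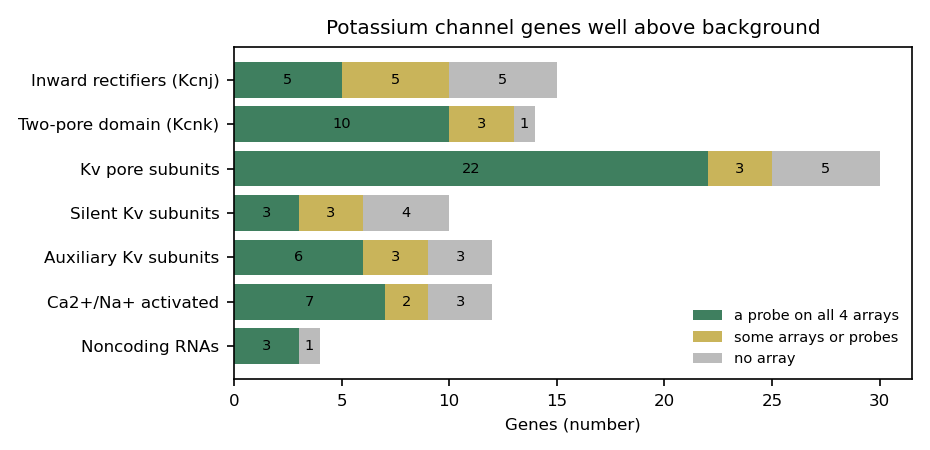
Number of genes (x axis) in each subfamily of potassium channels (y axis), split by whether a probe was well above background on all 4 arrays, on some arrays or probes, or on no array. Two-pore-domain channels were read on all arrays in 10 of 14 genes, inward rectifiers in 5 of 15.

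A probe was tested if both arrays of a group read it well above background, which left 94 member probes of 70 genes. After OGD, 29 of these probes were higher and 24 were lower in limma, while 41 were not called. Over all probes, 37.9% were higher and 27.1% were lower, so that 65% were called. Past a 2-fold change, 14 member probes were higher and 11 were lower, against 13.9% and 14.8% of all probes. Among the 11 were probes of *Kcna2*, *Kcna5* and *Kcnc1* that were kept only through the untreated group, in which they were high. A single member probe, that of *Kcnj2*, passed the 10-fold limit of the study's methods, which 1.33% of all probes passed in either direction and 0.81% as an increase. That probe was kept only through the OGD group, in which it was high, so nothing is read from its passing. The median over the 94 probes was 0.067, close to the 0.18 of all probes. Without scaling between arrays, the signals of both OGD arrays were below both untreated arrays for 79 member probes and above them for 8, with 7 overlapping, against 89.7% below and 5.45% above of all probes. Scaled on the spiked-in probes, 8 member probes were higher and 76 lower, against 4.47% and 81.9% of all probes. By the brightest probe of each gene, 22 genes were higher and 16 lower, against 37.1% and 27.8% of all genes.

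The subfamilies differed in how many probes were called in each direction, and none of these differences was tested. The Kv pore subunits had 10 higher and 13 lower of 39 probes (median −0.0083), and the two-pore-domain channels had 4 higher and 1 lower of 12 (median 0.35). The auxiliary Kv subunits had 5 higher and 1 lower of 9 (median 0.83). The inward rectifiers had 4 higher and 3 lower of 11 (median 0.070), the calcium- or sodium-activated channels with their auxiliary subunits 4 and 4 of 13 (median 0.048), and the silent Kv subunits 1 and 1 of 6 (median −0.027). Under spike-in scaling all of these medians were below 0, from −0.46 for auxiliary Kv subunits to −1.32 for silent subunits.

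**Figure D2:**
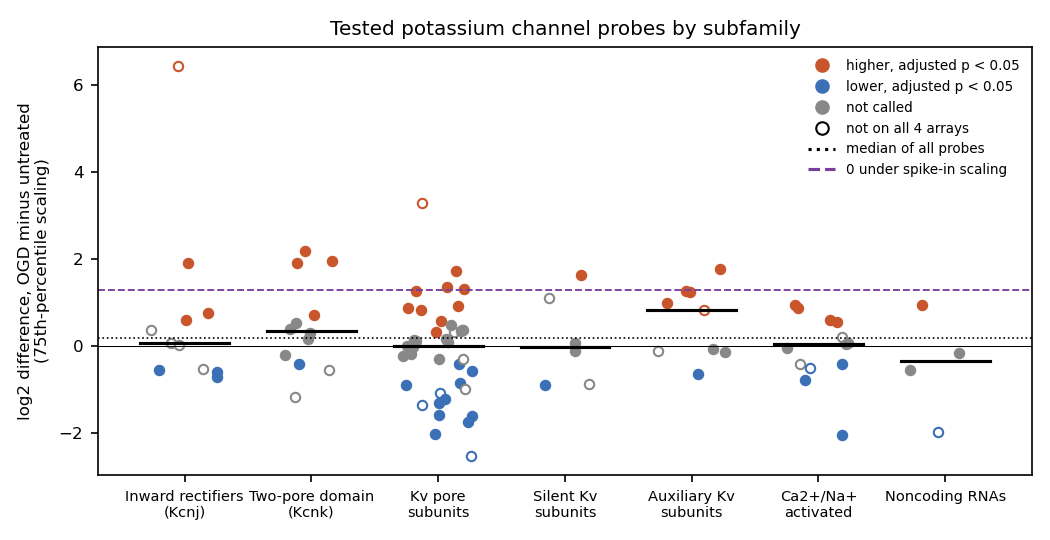
Log2 difference of OGD minus untreated AECs (y axis) for the 94 tested probes, by subfamily (x axis). Black bars are subfamily medians, open circles are probes not well above background on all 4 arrays, the dotted line is the median of all probes (0.18) and the dashed line is where 0 lies under spike-in scaling. Most probes called higher lie below the dashed line, so that they were lower or not called under spike-in scaling.

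*Kcnj10*, the Kir4.1 subunit that carries most of the resting potassium conductance of astrocytes, had processed signals of 86246 and 71723 in untreated AECs and of 45733 and 45754 after OGD. Both OGD arrays were thus below both untreated arrays before scaling. Relative to the 75th percentile *Kcnj10* was higher by 0.59 ± 0.14 (SE; limma adjusted p = 0.0277), whereas it was −0.70 under spike-in scaling (limma adjusted p = 0.00505) and −0.27 under quantile normalization (limma adjusted p = 0.118). Both negative differences have to be read against the median of all probes, which was −1.11 under spike-in scaling and 0.012 under quantile normalization. The call at 0.59 was lost without untreated replicate 1 (0.73, limma adjusted p = 0.0549), without untreated replicate 2 (0.45, limma adjusted p = 0.134) and without OGD replicate 2 (0.49, limma adjusted p = 0.0810). Leaving out an array leaves 1 in its group, which is then assumed to vary like the other group, and fewer degrees of freedom, so a call can be lost at a similar or larger difference. It was also lost with a 75th percentile taken only from well-measured probes (0.44, limma adjusted p = 0.0628), with the replicate number as a block (limma adjusted p = 0.0616) and by the methods' t-test.

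*Kcnj16*, the Kir5.1 subunit that assembles with Kir4.1, showed the same order of the groups. Its signals were 6008 and 6045 in untreated AECs and 4056 and 3775 after OGD. The difference was 0.75 ± 0.081 (limma adjusted p = 0.00336), and it was −0.54 under spike-in scaling (limma adjusted p = 0.00585).

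*Kcnj2*, the strong inward rectifier Kir2.1, was kept only through the OGD group, in which it was high, and its values are given as a description. Its signals were 7.11 and 7.14 in untreated AECs, of which only 1 array was well above background, and 229.7 and 246.1 after OGD. Here both OGD arrays were far above both untreated arrays before any scaling. The difference was 6.43, or 5.15 under spike-in scaling and 3.61 under normexp. It rests on untreated signals close to background, and the probe was not tested where all arrays had to be well above background. The gene had 1 probe on the array, and its first 30 bases, at chr11:110936203-110936232 on mm9, are shown because a single probe carries the result:
Kcnj2 probe: ctcaaaatcaagcctctaatggtattacac

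Since OGD includes hypoxia, the promoter of *Kcnj2* was searched for the core letters of the hypoxia response element, ACGTG or GCGTG on either strand. The 250 bases before its RefSeq start site, chr11:111065914-111066163 on the plus strand of GRCm38.p6, hold them once as a palindrome, which is read on both strands and is in capitals:
Kcnj2 promoter: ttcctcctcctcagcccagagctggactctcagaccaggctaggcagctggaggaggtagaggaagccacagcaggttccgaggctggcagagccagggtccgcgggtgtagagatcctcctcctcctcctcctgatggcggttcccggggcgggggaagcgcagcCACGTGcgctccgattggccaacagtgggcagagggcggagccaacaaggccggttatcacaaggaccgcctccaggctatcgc
These short letters are common. They were in 43.8% of all 32851 promoter windows of 300 bases and in 45 of 96 windows (46.9%) of the member genes, 71 of which had a window. A match describes the sequence and is not a binding site.

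The other strong inward rectifiers moved in different directions. *Kcnj4*, which encodes Kir2.3, had signals of 363 and 368 in untreated AECs and of 604 and 471 after OGD. Both OGD arrays were above both untreated arrays, and the difference was 1.92 ± 0.095 (limma adjusted p = 0.000940), or 0.63 under spike-in scaling. A second *Kcnj4* probe, dim at 25.2 and 24.2 in untreated AECs and at 26.0 and 5.92 after OGD, was at 0.38, as a description, since it was kept only through the untreated group. *Kcnj12*, which encodes Kir2.2, fell from 684 and 638 to 169 and 141, a difference of −0.73 ± 0.089 (limma adjusted p = 0.00462).

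The pore subunits of ATP-sensitive channels, which open when cellular ATP falls, were hardly read. *Kcnj8*, the Kir6.1 subunit, was not well above background on any array, with signals of 3.33 to 4.85. *Kcnj11*, the Kir6.2 subunit, was well above background on 1 untreated array with 1 of its probes and was not tested. Of their sulfonylurea receptor subunits, *Abcc9* was not well above background on any array. *Abcc8* was well above background on all arrays, at 38.8 and 34.1 in untreated AECs and at 25.6 and 20.3 after OGD, a difference of 0.70 ± 0.12 (limma adjusted p = 0.00974) that was −0.59 under spike-in scaling. *Kcnj9*, a subunit of channels opened by G proteins, was well above background in untreated AECs and on no array after OGD. As a description, since the probe was kept only through the untreated group, it was at least 1.12-fold lower after OGD and at 0.99 under normexp.

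**Figure D3:**
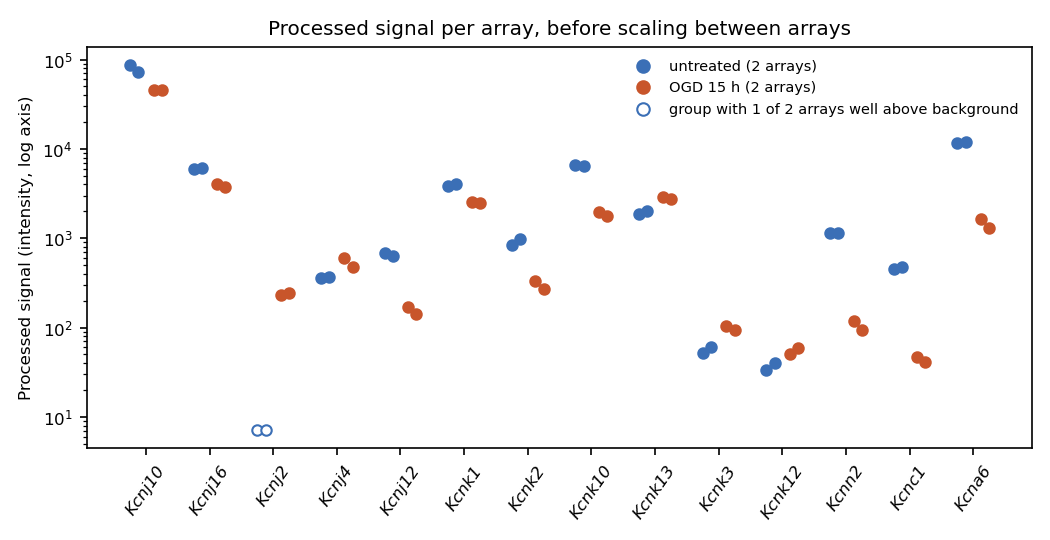
Processed signal (y axis, log scale) of 14 member genes (x axis) on each of the 4 arrays, before scaling between arrays. Open circles mark the group in which 1 of 2 arrays was well above background. *Kcnj2*, *Kcnj4*, *Kcnk13*, *Kcnk3* and *Kcnk12* were above both untreated arrays after OGD, and the others were below them.

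Among the two-pore-domain channels, which carry background potassium currents, *Kcnk3*, *Kcnk12* and *Kcnk13* rose under the main scaling and under spike-in scaling. *Kcnk13*, which encodes THIK-1, had signals of 1868 and 2018 in untreated AECs and of 2877 and 2773 after OGD. The difference was 1.91 ± 0.095 (limma adjusted p = 0.000942), or 0.63 under spike-in scaling (limma adjusted p = 0.00544). THIK-1 is also known from microglia, of whose markers 11 were tested. Of these, 5 were higher (among them *Cd68*, *Csf1r*, *Aif1* and *C1qb*), *Tmem119* and *Trem2* were lower and 4 were not called. *Trem2* was kept only through the untreated group, in which it was high. Under normexp *Trem2* was at 0.67 and *Tmem119* at 0.18. The list median was 0.36 (−0.93 under spike-in scaling, where *Cd68* alone of the higher ones was above 0).

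*Kcnk3*, the acid-sensitive channel TASK-1, had signals of 52.1 and 61.1 in untreated AECs and of 104 and 94.5 after OGD, a difference of 2.18 ± 0.11 (limma adjusted p = 0.000935). Under spike-in scaling it was 0.90. *Kcnk12*, which encodes THIK-2, had signals of 33.4 and 39.8 in untreated AECs and of 50.6 and 58.9 after OGD, a difference of 1.96 ± 0.19 (limma adjusted p = 0.00258). For both genes the OGD arrays were above the untreated arrays before scaling, although the signals were low. *Kcnk12* was read by a single probe, at chr17:88145628-88145687 on the minus strand of mm9, shown whole for that reason:
Kcnk12 probe: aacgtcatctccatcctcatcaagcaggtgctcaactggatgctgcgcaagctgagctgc

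The two-pore-domain channels best known from astrocytes had smaller differences. *Kcnk1*, which encodes TWIK-1, had signals of 3882 and 4071 in untreated AECs and of 2531 and 2457 after OGD, a difference of 0.70 ± 0.093 (limma adjusted p = 0.00556) that became −0.59 under spike-in scaling. The call was lost without untreated replicate 1 (0.68, limma adjusted p = 0.0560) or without untreated replicate 2 (0.72, limma adjusted p = 0.0541). *Kcnk10*, the stretch-sensitive channel TREK-2, fell from 6535 and 6505 to 1990 and 1767.

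For *Kcnk10* the difference was −0.42 ± 0.075 (limma adjusted p = 0.0115), and the call was lost without untreated replicate 1 (−0.41, limma adjusted p = 0.104) or without untreated replicate 2 (−0.44, limma adjusted p = 0.100). *Kcnk2*, the related TREK-1, had signals of 836 and 975 in untreated AECs and of 335 and 270 after OGD, and its difference of −0.21 ± 0.11 was not called (limma adjusted p = 0.172). *Kcnk6* and *Kcnk5* were kept only through the untreated group and, as a description, were at least 1.30-fold and 1.12-fold lower after OGD and at 0.92 and 0.89 under normexp. *Kcnk6* and *Kcnk5* were not called, and neither were the other 4 genes tested in this subfamily.

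The Kv pore subunits held most of the large decreases. *Kcnc1*, which encodes the fast Kv3.1 channel, had signals of 448 and 474 in untreated AECs and of 46.4 and 40.9 after OGD with its brightest probe. The difference was −2.03 ± 0.077, a 4.08-fold decrease (limma adjusted p = 0.000765), or −3.32 under spike-in scaling and −0.93 under normexp. A probe farther upstream, with signals of 150.2 and 154 in untreated AECs and of 30.7 and 32.5 after OGD, was at −0.90 ± 0.12 (limma adjusted p = 0.00606), or 0.03 under normexp. Both groups were apart on either probe. The last probe was dim, at 13.59 and 11.52 in untreated AECs and well above background on no array after OGD, so that no fold is given. It was kept only through the untreated group and was at 1.05 under normexp. The upstream probe at chr7:53682767-53682826 (mm9) and the first 30 bases of the downstream probe, at chr7:53688622-53688651, show which parts of the transcript were read:
Kcnc1 upstream probe: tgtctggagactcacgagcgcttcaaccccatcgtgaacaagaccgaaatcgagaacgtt
Kcnc1 downstream probe: gccttgccgtcttgtacgacagactttttt

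*Kcna6*, which encodes the delayed rectifier Kv1.6, fell from 11562 and 11787 to 1636 and 1314. The difference was −1.62 ± 0.086, a 3.07-fold decrease (limma adjusted p = 0.00103). Another probe was at −1.60 (limma adjusted p = 0.00233), or 0.085 under normexp, and the last was at −0.18 and was not called (limma adjusted p = 0.222). *Kcnh5*, an ether-à-go-go channel, fell from 1215 and 1241 to 282 and 241, a difference of −0.86 ± 0.075 (limma adjusted p = 0.00219).

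*Kcnc4*, which encodes Kv3.4, was dimmer, at 97.7 and 90.3 in untreated AECs and at 14.4 and 16.9 after OGD. Its difference of −1.22 ± 0.18 (limma adjusted p = 0.00687) was 0.24 under normexp, below the 0.55 of all probes under that correction, and was not called without untreated replicate 1 (−1.15, limma adjusted p = 0.0518). *Kcna2*, which encodes Kv1.2, had signals of 52.5 and 58.0 in untreated AECs and was not well above background on either array after OGD. As a description, since the probe was kept only through the untreated group, it was at least 3.04-fold lower after OGD and at 0.48 under normexp.

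The Kv4 subunits, which form rapidly inactivating A-type channels, showed the widest spread between probes of a gene. *Kcnd3*, known from astrocytes, had signals of 31371 and 31757 in untreated AECs and of 12664 and 11428 after OGD with its brightest probe. The difference of −0.019 ± 0.076 was not called (limma adjusted p = 0.843) and was 0.0033 without OGD replicate 1. A probe farther upstream had signals of 107 and 93.1 in untreated AECs and of 123 and 131 after OGD, a difference of 1.73 ± 0.15 (limma adjusted p = 0.00208), or 0.44 under spike-in scaling.

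*Kcnd1* was the 1 member gene with probes called in opposite directions. Its brightest probe had signals of 443 and 464 in untreated AECs and of 314 and 308 after OGD, a difference of 0.83 ± 0.096 (limma adjusted p = 0.00398) that was −0.46 under spike-in scaling. The probe farthest downstream fell from 155 and 142 to 26.2 and 20.3, a difference of −1.31 ± 0.11 (limma adjusted p = 0.00210), which was −0.049 and not called under normexp. The third probe, farthest upstream, was at 0.36 and was not called (limma adjusted p = 0.105). *Kcnd2* was at −0.31 ± 0.13 (limma adjusted p = 0.110) and was 0.27 under normexp.

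The upstream probe of *Kcnd3* and the middle probe of *Kcnd1*, which were called higher after OGD, are given whole. Their downstream partners are given by their first 30 bases. The call depended on which probe was read, and for *Kcnd1* its direction did as well. They lie on mm9 at chr3:105471938-105471997 and chr3:105476854-105476883 (*Kcnd3*) and at chrX:7413570-7413629 and chrX:7415303-7415332 (*Kcnd1*), all on the plus strand. The capitals mark a stop triplet that ends an otherwise open reading frame:
Kcnd3 upstream probe: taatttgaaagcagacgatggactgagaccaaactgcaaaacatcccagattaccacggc
Kcnd3 downstream probe: tactgagtcctgtgccactgctgtacctga
Kcnd1 middle probe: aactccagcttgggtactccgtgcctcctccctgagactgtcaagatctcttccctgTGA
Kcnd1 downstream probe: accaatcttggattcagatcgacacatttt

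Of the Kv subunits that rose, *Kcna7*, which encodes Kv1.7, had signals of 232 and 216 in untreated AECs and of 217 and 224 after OGD. The difference was 1.35 ± 0.12 (limma adjusted p = 0.00231) relative to the 75th percentile and 0.063 under spike-in scaling, where it was not called. *Kcnq3*, a subunit of the M-current channel, was dim at 11.8 and 8.67 in untreated AECs and at 10.2 and 9.22 after OGD. Its difference of 1.31 ± 0.18 (limma adjusted p = 0.00615) was 0.026 under spike-in scaling, where it was not called. For both genes the groups overlapped before scaling.

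*Kcnq5*, another M-current subunit, is named here because of its values. One probe had signals of 9.35 and 6.10 in untreated AECs, with 1 array well above background, and of 27.7 and 29.7 after OGD. Its difference was 3.30, or 2.01 under spike-in scaling and 1.76 under normexp. These are given as a description, since the probe was kept only through the group in which it was high. The brightest probe of the gene, with signals of 96.2 and 103 in untreated AECs and of 32.9 and 32.7 after OGD, was at −0.23 and was not called (limma adjusted p = 0.120), and was at 0.55 under normexp.

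Silent Kv subunits form no channel alone and modify other Kv channels. *Kcnf1*, which encodes Kv5.1, was higher with its upstream probe, from 47.6 and 52.9 in untreated AECs to 62.0 and 57.6 after OGD, a difference of 1.63 ± 0.093 (limma adjusted p = 0.00112) and of 0.34 under spike-in scaling. Its brightest probe, farther downstream, had signals of 136 and 132 in untreated AECs and of 60.0 and 48.7 after OGD, and was not called at 0.067 ± 0.087 (limma adjusted p = 0.532). The upstream probe, at chr12:17181507-17181566 on the minus strand of mm9, ends in a stop triplet (capitals), and the downstream probe starts with the bases at chr12:17179557-17179586:
Kcnf1 upstream probe: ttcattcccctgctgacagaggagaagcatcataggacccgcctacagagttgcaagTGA
Kcnf1 downstream probe: atactcagagatccaaagtatctttttgct
*Kcns1*, which encodes Kv9.1, fell from 60.6 and 58.1 to 11.9 and 12.5, a difference of −0.91 ± 0.13 (limma adjusted p = 0.00606). It was 0.56 under normexp, beside 0.55 for all probes, and was not called without untreated replicate 1 (−0.87, limma adjusted p = 0.0522).

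Of the auxiliary Kv subunits, *Kcnip1*, a calcium-binding partner of Kv4 channels, had signals of 353 and 365 in untreated AECs and of 357 and 310 after OGD. The groups overlapped before scaling, and the difference was 1.26 ± 0.075 (limma adjusted p = 0.00118), or −0.026 and not called under spike-in scaling. *Kcne2*, a small membrane subunit, was at 9.63 and 9.09 in untreated AECs and at 17.9 and 8.38 after OGD, a difference of 1.76 ± 0.33 (limma adjusted p = 0.0141). *Kcne2* was not called without untreated replicate 1 (1.81, limma adjusted p = 0.0677), without untreated replicate 2 (1.71, limma adjusted p = 0.0797) or under spike-in scaling, where its difference was 0.47.

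Among the calcium-activated channels, *Kcnn2*, the small-conductance channel SK2, fell most. Its signals were 1131 and 1136 in untreated AECs and 118 and 93.3 after OGD, which left a gap between the groups on every scale. The difference was −2.06 ± 0.090, a 4.18-fold decrease (limma adjusted p = 0.000814), or −3.35 under spike-in scaling. *Kcnma1*, the pore subunit of the large-conductance BK channel, had signals of 50.1 and 49.7 in untreated AECs and of 22.6 and 18.0 after OGD with its brightest probe. The difference of 0.066 ± 0.090 was not called (limma adjusted p = 0.549), was −1.22 under spike-in scaling and changed sign to −0.0028 without OGD replicate 1. *Kcnu1*, known as a channel of sperm, was at 92.0 and 91.7 in untreated AECs and at 23.6 and 18.0 after OGD, a difference of −0.78 ± 0.10 (limma adjusted p = 0.00548) that was 0.38 under normexp. It was not called without untreated replicate 1 (−0.77, limma adjusted p = 0.0520) or without untreated replicate 2 (−0.80, limma adjusted p = 0.0532).

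*Kcnq1ot1* is a noncoding RNA transcribed from within *Kcnq1* against its direction and silences imprinted neighbors. Its brightest probe had signals of 354 and 259 in untreated AECs and of 59.9 and 104 after OGD, and its difference of −0.56 ± 0.40 was not called (limma adjusted p = 0.280), except without OGD replicate 2 (−1.06, limma adjusted p = 0.0400). A second probe, on no array well above background after OGD, was kept only through the untreated group and, as a description, was at least 1.18-fold lower. Under normexp the differences of the brightest and the second probe were 0.071 and 0.85.

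Probes of the same gene were set against each other by position, using the 13 member genes with at least 2 probes on all arrays. The outermost upstream probe had the higher difference in 11 of them, which is 84.6%, against 74.9% of 4838 genes in all. The median difference between the upstream and the downstream probe was 0.38 among members and 0.36 among all genes. The probes of *Kcnq1* started only 9 bases apart, and their gap was also 0.38, so a gap of that size needs no distance between probes. Those of *Kcnj13* started 132 bases apart. The order within a gene does not depend on a shift shared by all probes of an array. The gap was wide for *Kcnd3* (1.74), *Kcnd1* (1.67), *Kcnf1* (1.56) and *Kcnc1* (1.13), and it was near 0 for *Kcna6* (0.022), *Kcnma1* (−0.019) and *Kcnj13* (−0.064).

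**Figure D4:**
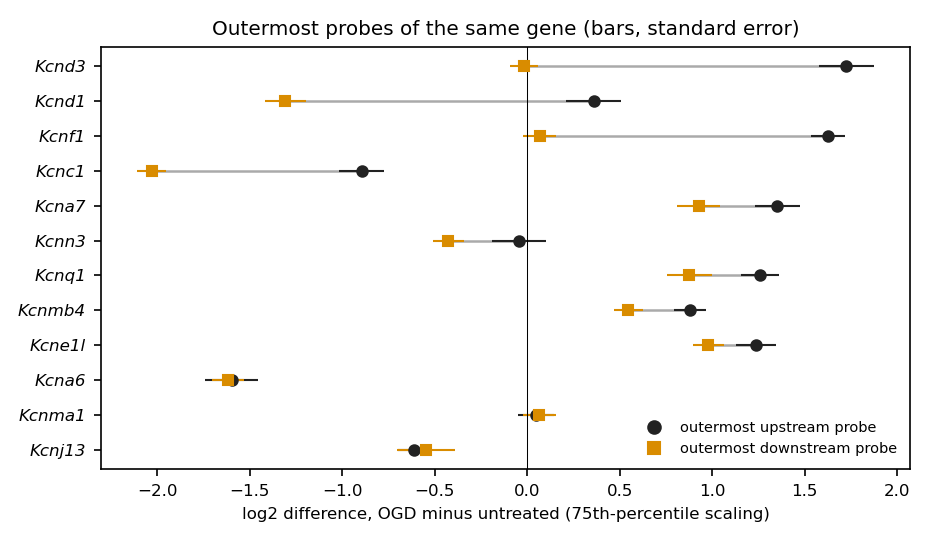
Log2 difference of OGD minus untreated AECs (x axis, bars are the standard error) of the outermost upstream (black) and downstream (orange) probe of 12 of the 13 member genes (y axis). The upstream probe lies to the right except in *Kcnma1* and *Kcnj13*, and the gap is wide in *Kcnd3* (1.74), *Kcnd1* (1.67) and *Kcnf1* (1.56).

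Genes that work with potassium channels in astrocytes were counted from a list of 41, which held Na,K-ATPase subunits, cation-chloride cotransporters and their kinases, glutamate transporters, gap junction and water channels, endfoot anchors, HCN channels and channel partners. By their brightest probes 35 were tested, of which 16 were higher, 4 were lower and 15 were not called, against 37.1% and 27.8% of all genes. The list median was 0.38, against 0.16 for all genes, and −0.91 against −1.13 under spike-in scaling.

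*Gjb2*, which encodes the gap junction protein connexin 26, rose on both scales, from 458 and 399 in untreated AECs to 1319.5 and 966 after OGD, a difference of 2.78 ± 0.14 (limma adjusted p = 0.000982) and of 1.49 under spike-in scaling. *Gja1*, which encodes connexin 43, was 2.14-fold higher (limma adjusted p = 0.00153) but at a difference of −0.19 under spike-in scaling. The sign of the difference turned in the same way for the Na,K-ATPase subunit *Atp1b1* (1.09 and −0.19), its regulator *Fxyd1* (1.07 and −0.22), the pacemaker channel *Hcn2* (1.13 and −0.16) and the Kv4 partner *Dpp6* (1.22 and −0.068). *Amigo1*, a membrane partner of Kv channels, fell by 1.84 ± 0.083 (limma adjusted p = 0.000849), from 1300.1 and 1361 to 159 and 130 in signal.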

How the data were processed

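RNA of 4 AEC samples (2 per group, grouped by the labels) was read on single-color Agilent arrays lying on 1 slide and read in 1 scan. The deposited values are the intensity that the authors' Feature Extraction software (11.5.1.1 in the submitters' processing notes) gave each spot after subtracting background within an array, without normalization between arrays. Probe positions and the build (mm9) are those of the files.

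Here, control and outlier spots were removed, the log2 processed signal was averaged over the spots of a probe, and the 75th percentile of the array was subtracted. The software's mark on a fraction of 0.5 or more of its spots made a probe well above background on an array. The 28258 probes with both arrays of a group so marked were fitted with limma 3.58.1 (lmFit, eBayes; R 4.3.3), and p-values were adjusted over all of them after Benjamini and Hochberg. The methods' t-test was an alternative because of 2 arrays per group. Where a group was dim on both arrays, a fold is a bound, the bright group's mean against the higher of the dim probe and the lowest signal well above background. The limma steps were tested on simulated data. All 97 symbols were found in RefSeq, and promoters are those of RefSeq (GRCm38.p6). The number of arrays and the signal over background limit the precision, and no depth in reads exists.

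The members, lists and tests were chosen with earlier results of these data known. Genes were named by a rule. It took members known from astrocytes, probes past 10-fold, the 10 largest increases and decreases on all arrays without overlap, up to 5 bounds in each direction, probes called in opposite directions, *Kcnq1ot1*, and up to 8 partners. *Kcnq5* and genes named beside a count are additions made after their values were seen. The alternatives were other tests, background corrections, scalings and filters, the replicate number as a block, other probe summaries, the deposited series table, and each array left out. Protein sequences and probe placement in exons were not analysed here. A few genes that the rule names are not reported here.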

Additional observations from a re-analysis of the deposited data

How the results depend on the processing

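Calls and directions changed with the scaling, the background correction, the filter, the test and the arrays used, and the cause was not tested. Of the values of the named probes under the alternatives, 653 kept their direction and side of the threshold, 32 lost and 18 gained a call, and 26 turned. Median scaling, limma with an intensity trend, outlier spots kept and the deposited series table changed none of these calls.

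Under spike-in scaling 8 member probes were higher and 76 lower (2 and 55 past 2-fold, 3 past 10-fold), with a median of −1.22, 5 genes higher and 57 lower, and 1 partner higher and 28 lower. Its turned values were *Kcnj10* (−0.70), *Kcnj16* (−0.54), *Kcnk1* (−0.59), *Kcnd1* (−0.46), *Kcnip1* (−0.026), *Kcnma1* (−1.22), *Atp1b1* (−0.19), *Gja1* (−0.19), *Fxyd1* (−0.22), *Hcn2* (−0.16) and *Dpp6* (−0.068). Under normexp 70 probes were higher and 8 lower (35 and 3 past 2-fold), with a median of 0.86, and 52 genes higher and 7 lower. It turned *Kcna2* (0.48), *Kcnc4* (0.24), *Kcnd2* (0.27), *Kcnj9* (0.99), *Kcnk5* (0.89), *Kcnk6* (0.92), *Kcnq1ot1* (0.85 and 0.071), *Kcnq5* (0.55), *Kcns1* (0.56) and *Kcnu1* (0.38). Quantile normalization turned *Kcnj10* (−0.27) and left 9 partners higher, and a 75th percentile taken only from well-measured probes turned *Kcnma1* (−0.082) and the median of the members (−0.081). All of these scalings also moved the median of all probes, by −1.29, 0.38, −0.17 and −0.15 in the order given. Without a filter 49 probes were higher (34 past 2-fold), with a median of 0.36 and a shift of 0.24 over all probes. With all arrays required to be well above background, 7 were lower past 2-fold and 0 passed 10-fold, since the *Kcnj2* probe was not tested then. The methods' t-test left 15 probes lower (7 past 2-fold) and 2 partners lower. Of the calls over all probes, 76.8% were higher under normexp, 67.8% without a filter, 58.0% by the methods' t-test and 5.17% under spike-in scaling. In the main fit 58.3% of the calls over all probes were higher, so the member counts have to be read against these shares. At a weaker mark for detection (positive and significant), 74 genes were read on all arrays.

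A fit without an array leaves 1 in its group, assumed to vary like the other group, and fewer degrees of freedom. With each array left out in turn, 21 to 35 probes were higher and 9 to 27 lower (13 to 17 and 7 to 14 past 2-fold, 1 to 4 past 10-fold), the median was −0.063 to 0.10, 13 to 26 genes were higher and 5 to 19 lower, and 7 to 16 partners were higher and 2 to 8 lower. Counts moved by more than 1.5 times without untreated replicate 1 (9 probes, 5 genes and 2 partners lower, 14 genes and 9 partners higher), without untreated replicate 2 (14 probes, 8 genes and 2 partners lower, 13 genes and 7 partners higher), without OGD replicate 1 (4 past 10-fold) and without OGD replicate 2 (8 partners lower). *Kcnd3* (−0.040 to 0.0033) and *Kcnma1* (−0.0028 to 0.14) changed sign without OGD replicate 1. The alternatives for the partners' counts and for *Kcnq5*, and the microglia sum without *Cd68*, were chosen after seeing the data.

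The replicate numbers are shared by the groups, but deviations of samples with the same number correlated at −0.057, and nothing else pairs them. With the replicate number as a block, 28 probes were higher and 24 lower, and *Kcnj10* at 0.59 was no longer called (limma adjusted p = 0.0616).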
